A study of Mus musculus with 15 samples.

Results

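The 38 genes described here encode the folding machinery of the endoplasmic reticulum (ER) and the parts of the unfolded protein response (UPR) that control it. They were chosen by name for these functions, with earlier results of these data known, and they are 38 of the 54532 genes in the forebrain count table. All 38 were also present in the gene lists of both microglia libraries. By role they fall into 17 luminal folding factors, 8 genes of protein translocation into the ER, 6 genes of ER-associated degradation (ERAD), 3 genes of the IRE1 and ATF6 branches of the UPR, and 4 genes of its PERK and ATF4 arm.

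Proteins bound for membranes, lysosomes or secretion enter the ER through the Sec61 channel, lose their signal peptide and are folded by chaperones, disulfide isomerases and lectins, while misfolded ones are returned to the cytosol and degraded. The UPR matches this machinery to its load. IRE1 splices Xbp1 mRNA into the form that encodes an active transcription factor, ATF6 is cut to release another, and both act on chaperone genes through the ER stress response element of their promoters. PERK instead phosphorylates the translation factor eIF2alpha, which lowers protein synthesis while raising translation of Atf4 mRNA. ATF4 protein then acts on amino acid and stress genes such as Ddit3 and Trib3, so mRNA counts read the targets of this arm more directly than its activity. Microglia, the resident macrophages of the brain, secrete complement and carry large amounts of lysosomal and membrane protein, all of which pass through the ER.

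Mice with a deletion of the autophagy gene Atg7 that Cx3cr1-driven CreER targets to microglia (genotype ATG7FF;Cx3cr1CreER, called cKO here) were compared with mice that carried the floxed ATG7FF allele without Cre (control). The strain was C57BL/6 throughout, tamoxifen (1.5 mg) was given at the age of 2 months, and tissue was taken at 8 months. Sorted microglia gave 1 single-cell library per genotype, from 4 pooled cKO and 3 pooled control forebrains. Bulk RNA came from forebrains without cerebellum, 7 cKO and 6 control libraries, and both genotypes here also carried 5xFAD, a transgenic model of amyloid deposition. Controls lacked the Cre insertion as well as the deletion, Cx3cr1-driven Cre also acts in other macrophages of the brain's borders, and neither comparison separates the effects of Cre and of Atg7 loss. Whether each bulk library was its own animal is not said in the labels, and p-values therefore speak only of the spread from library to library, part of which may be technical.

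The microglia libraries differed in depth. After removal of barcodes with under 500 genes or over 10% mitochondrial UMIs (unique molecular identifiers, each marking 1 captured RNA), 8874 of 9840 cKO cells and 6243 of 6633 control cells were kept, with medians of 4531.5 and 1392 UMIs. The libraries shared 22 barcodes, of which 11 were kept in both. All 16 microglia markers were above 20 CPM (the usual counts-per-total unit, here UMIs summed over cells), summing to 57105 CPM in the cKO and 65149 CPM in the control library. The lists for border macrophages, monocytes and neutrophils, lymphocytes, neurons, astrocytes, oligodendrocytes and vessels summed to between 4.47 and 180 CPM in the cKO library and between 2.41 and 163 CPM in the control library. Of the 60 genes in these lists, 15 were at 0 in the cKO library and 28 in the control library, among them in both Cd163 and Lyve1 of border macrophages, Ly6c2 and Ly6g of monocytes and neutrophils, and Cd3e of T cells. Border macrophage markers differed between the libraries, with 14.5 CPM in the cKO and 5.81 CPM in the control library. So did neuron markers, with 4.92 CPM in the cKO and 2.41 CPM in the control library. Monocyte and neutrophil markers differed the other way, with 4.47 CPM in the cKO and 8.55 CPM in the control library. Leaving out cells with 2 or more UMIs of any of these lists gave a summed ratio of 0.403 for the luminal folding genes described below, against 0.406 with them. This cutoff was not scaled to depth and took more from the deeper cKO library. Hspa5, for example, fell from 11112 to 6594 UMIs there, and from 8498 to 7928 UMIs in the control library. The part of other cell types was not tested beyond this. Atg7 stood at 18.1 CPM in the cKO library and 15.8 CPM in the control library, but 3' tags need not lie in the deleted part and so check nothing about the deletion. The 13 forebrain libraries held 16658707 to 22355512 counts each, and there too Atg7 averaged 24.3 ± 1.32 CPM in cKO libraries (SD, n = 7) and 24.3 ± 2.09 CPM in control libraries (SD, n = 6), in tissue where most Atg7 RNA comes from cells without the deletion.

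The promoters of the members differ in the response elements they carry, and these are shown first. The ER stress response element is the one named above for chaperone genes. Finding it in folding members is therefore a description and no division independent of their choice. RefSeq promoter sequences (build GRCm38.p6, the 250 bases before to 50 bases after each start) were at hand for 32 of the 38 members. The ER stress response element (ERSE, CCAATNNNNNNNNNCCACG), searched on both strands, occurred in 8 of these 32 members, against 0.137% of the 27025 genes and 0.119% of the 32851 promoters in the table. It occurred in 7 of 15 luminal folding members (Hspa5, Calr, Canx, Hsp90b1, Pdia6, Creld2 and Dnajc3), in 1 of 5 ERAD members (Syvn1), in 0 of 6 translocation members and in 0 of 4 members of the PERK and ATF4 arm. Hsp90b1 carried 2 matches. A match to these letters is a description of the sequence and does not show that a factor binds there.

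The ERSE windows below run 5′ to 3′ on the strand of the gene, with the fixed letters of the element in capitals. A match on the opposite strand reads CGTGG first and ATTGG last, as in Calr, the second Hsp90b1 window and Creld2.
Hspa5: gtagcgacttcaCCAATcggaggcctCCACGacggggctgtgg
Calr: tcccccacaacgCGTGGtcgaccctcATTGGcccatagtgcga
Hsp90b1, first match: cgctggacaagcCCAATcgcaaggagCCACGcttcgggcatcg
Hsp90b1, second match: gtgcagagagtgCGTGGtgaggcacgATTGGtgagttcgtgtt
Canx: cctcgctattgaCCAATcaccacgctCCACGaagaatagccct
Pdia6: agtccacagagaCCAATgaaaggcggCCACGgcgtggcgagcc
Dnajc3: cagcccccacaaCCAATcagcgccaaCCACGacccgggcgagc
Creld2: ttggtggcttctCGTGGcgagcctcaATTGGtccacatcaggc
Syvn1: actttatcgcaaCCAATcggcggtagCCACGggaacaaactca

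On GRCm38.p6 these windows lie at chr2:34772013-34772055 (plus strand, Hspa5), chr8:84847063-84847105 (minus, Calr), chr10:86705626-86705668 and chr10:86705521-86705563 (minus, Hsp90b1), chr11:50325788-50325830 (minus, Canx) and chr12:17266479-17266521 (plus, Pdia6). The remaining ones lie at chr14:118937815-118937857 (plus, Dnajc3), chr15:88819508-88819550 (plus, Creld2) and chr19:6046520-6046562 (plus, Syvn1). Among the 15 luminal folding members with a promoter sequence, the 7 with the element had a median log2 ratio of -1.53 between the microglia libraries, and the 8 without it had -0.998. Syvn1, with the element but outside the folding group, had -0.26.

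Herpud1, an ERAD scaffold that answers to several UPR branches, carried a different pair of elements. Its promoter held the type II element (ERSE-II, ATTGGNCCACG), found in 2 of 32 members and in 0.0444% of all genes (0.0365% of promoters), and the C/EBP-ATF response element (CARE, TGATGNAA), found in 2 of 32 members and in 4.51% of all genes (3.97% of promoters). The other matches, ERSE-II in Dnajb11 and CARE in Trib3, lay after the start of transcription. The XBP1 element (UPRE), searched only as TGACGTGG, was in 0 of 32 members and in 0.714% of all genes (0.676% of promoters). At so low a share, its absence from 32 genes says little about them, and variants of these letters were not searched. No matches overlapped each other. The 250 bases before the start of Hspa5 (chr2:34771840-34772089, plus strand) and of Herpud1 (chr8:94386179-94386428, plus strand) are given whole to set the folding gene with the ERSE beside the ERAD gene with ERSE-II and, on the opposite strand (TTNCATCA), CARE.
Hspa5: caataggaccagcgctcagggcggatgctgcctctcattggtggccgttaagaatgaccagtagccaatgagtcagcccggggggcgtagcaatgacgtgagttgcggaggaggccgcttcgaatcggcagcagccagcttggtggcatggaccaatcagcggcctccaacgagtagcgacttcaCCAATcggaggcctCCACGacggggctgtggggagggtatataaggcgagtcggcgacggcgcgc
Herpud1: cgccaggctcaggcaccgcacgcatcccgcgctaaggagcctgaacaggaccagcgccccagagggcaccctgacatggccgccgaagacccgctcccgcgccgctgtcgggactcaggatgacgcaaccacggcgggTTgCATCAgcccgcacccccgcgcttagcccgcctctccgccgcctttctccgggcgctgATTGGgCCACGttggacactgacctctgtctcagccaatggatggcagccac

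In sorted microglia the luminal folding factors were lower in the cKO library as a group. All 17 stood below the control, 15 of them by at least 1.5-fold, and together they made up 2579 CPM in the cKO library against 6360 CPM in the control library, a ratio of 0.406 (0.401 to 0.410). The remaining roles differed less, with 1 of 8 translocation genes, 0 of 6 ERAD genes and Xbp1 alone in the IRE1 and ATF6 group lower by 1.5-fold. No member was higher by 1.5-fold. The intervals are exact Poisson intervals at 95% and allow for counting error alone. Because each genotype had a single library, no test was possible, and library and genotype cannot be told apart.

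Of the 6769 genes with at least 20 CPM in 1 library, 1.43% were at least 1.5-fold lower in the cKO library and 1.88% at least 1.5-fold higher, and 38.4% were lower by any amount. The median log2 ratio over those genes was 0.05. Of the 38 members, 35 reached that level and 17 of the 35 were at least 1.5-fold lower. When the 6769 genes were ordered by ratio, 12 members were among the 20 lowest. Since the members were chosen with earlier results of these data known, these shares describe them and are no independent test. The median log2 ratio was -1.25 for luminal folding, -0.32 for translocation and -0.06 for ERAD.

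**Figure D1:**
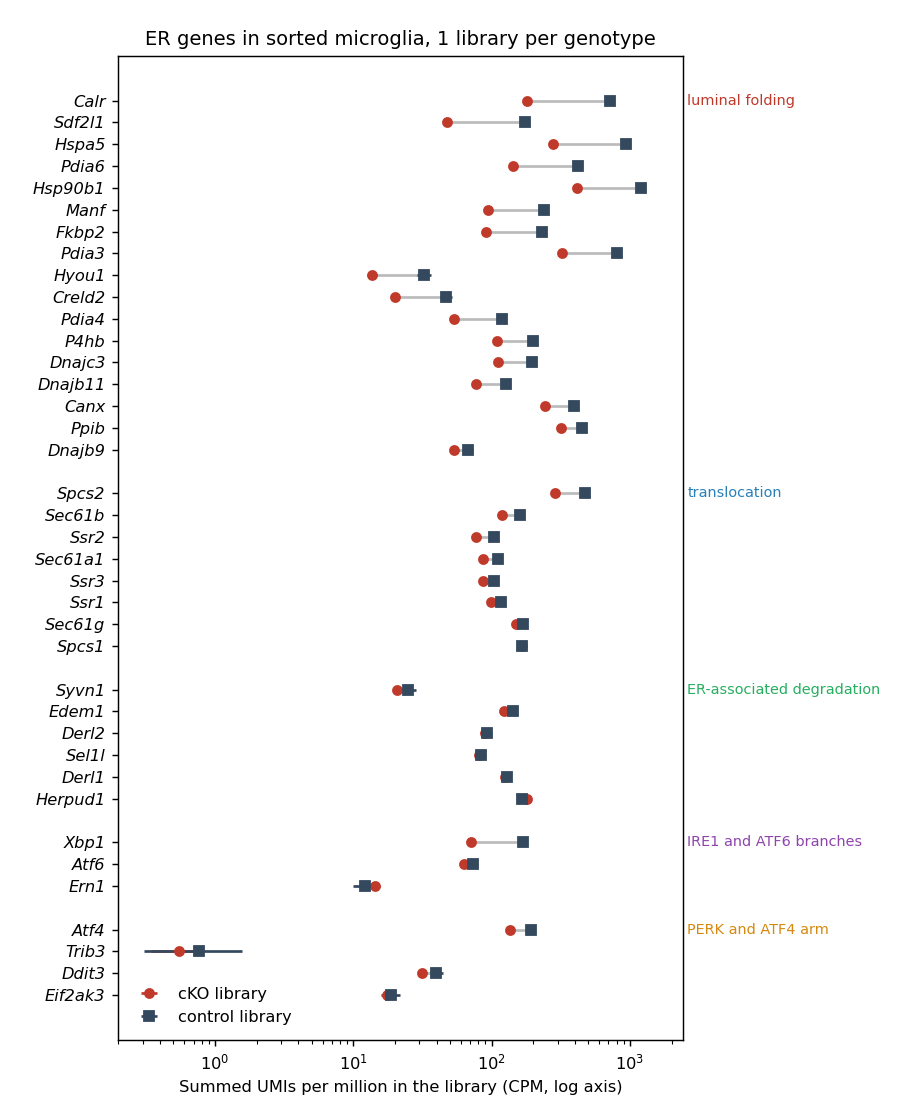
CPM (log axis) of each of the 38 genes in the cKO (circles) and control (squares) microglia libraries, by role, with exact 95% Poisson intervals as horizontal bars. The gap between the libraries runs through the luminal folding genes, from 3.97-fold for Calr to 1.27-fold for Dnajb9, and closes in the ERAD group.

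Over all cells the member with the widest gap was Calr (ENSMUSG00000003814, chromosome 8, 84841850 to 84846934), which encodes the lectin chaperone calreticulin. It stood at 181 CPM in the cKO library and 718 CPM in the control library, 3.97-fold lower (3.84 to 4.10), the third lowest ratio of all genes at that level. Within cluster 1, described below, the order at the top was not resolved. There Hyou1 had a ratio of 0.234 (0.063 to 0.606) on 4 cKO UMIs, and Sdf2l1 0.247 (0.156 to 0.372). Hspa5 had 0.247 (0.205 to 0.296) and Calr 0.251 (0.203 to 0.307). In cells with at least 1000 and under 3000 UMIs Sdf2l1 was lowest, with 0.143 (0.110 to 0.184) against 0.214 (0.192 to 0.236) for Calr. Its membrane-bound relative Canx, calnexin, stood at 245 CPM in the cKO library and 392 CPM in the control library, 1.60-fold lower (1.54 to 1.66). The gap was wider for the soluble than for the membrane-anchored lectin. Pdia3 (ERp57), the disulfide isomerase that both lectins recruit to glycoproteins, was 2.52-fold lower at 323 CPM in the cKO library against 812 CPM in the control library.

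The Hsp70 chaperone BiP and its helpers differed in the size of their gaps. Hspa5 itself (ENSMUSG00000026864, chromosome 2, 34771970 to 34777547) had 278 CPM in the cKO library and 932 CPM in the control library, 3.36-fold lower (3.26 to 3.45). Sdf2l1, which keeps client proteins soluble in a complex with BiP and Dnajb11, was 3.69-fold lower (3.45 to 3.94) at 47.3 CPM in the cKO library against 174 CPM in the control library. Hyou1 (GRP170), the nucleotide exchange factor that makes BiP release its clients, stood at 13.7 CPM in the cKO library and 32.4 CPM in the control library, 2.37-fold lower (2.05 to 2.74). Manf, a small ER protein that binds BiP, stood at 94.8 CPM in the cKO library and 241 CPM in the control library, 2.54-fold lower.

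Ratios nearer 1 belonged to the J-domain co-chaperones that stimulate the ATPase of BiP. Dnajc3 (P58IPK) had 112 CPM in the cKO library against 197 CPM in the control library (1.76-fold lower), and Dnajb11 (ERdj3) had 77.6 CPM in the cKO library against 127 CPM in the control library (1.64-fold lower). Dnajb9 (ERdj4) had 53.5 CPM in the cKO library against 67.7 CPM in the control library. Its 1.27-fold gap (1.16 to 1.39) over all cells was the smallest of the 17 folding factors. The Dnajb9 ratio was 0.861 (0.667 to 1.13) within cluster 0 and 0.871 (0.590 to 1.24) within cluster 1, intervals that span 1. Over all cells the 3 J-domain genes thus lay between 1.27-fold and 1.76-fold, and BiP, Sdf2l1, Hyou1 and Manf between 2.37-fold and 3.69-fold. This separation was lost in cells with at least 1000 and under 3000 UMIs, where the ratio was 0.602 for Hyou1 (0.436 to 0.817) but 0.403 for Dnajb11 and 0.447 for Dnajc3. The cKO side of that range may hold many cells of cluster 2, described at the end.

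Hsp90b1, which encodes the ER form of Hsp90 (GRP94), a chaperone needed for integrins and Toll-like receptors, had 416 CPM in the cKO library and 1203 CPM in the control library, 2.89-fold lower (2.82 to 2.96). The other disulfide isomerases spread over a range. Pdia6 (P5) was 2.91-fold lower, with 144 CPM in the cKO library and 419 CPM in the control library. Pdia4 (ERp72) was 2.21-fold lower, with 53.6 CPM in the cKO library and 118 CPM in the control library. P4hb, protein disulfide isomerase itself, was 1.81-fold lower, with 110 CPM in the cKO library and 198 CPM in the control library.

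Creld2, an ER protein of the disulfide isomerase type that is induced by ER stress, was 2.34-fold lower (2.08 to 2.63) at 20.1 CPM in the cKO library against 47.0 CPM in the control library. The prolyl isomerases differed from each other. Fkbp2 (FKBP13) had 91.1 CPM in the cKO library and 230 CPM in the control library, 2.53-fold lower (2.40 to 2.67). Ppib (cyclophilin B) had 319 CPM in the cKO library and 451 CPM in the control library, 1.41-fold lower (1.36 to 1.46), short of the 1.5-fold mark. It passed that mark in cells thinned to 1000 UMIs (ratio 0.662), also in those without Fos, Fosb and Egr1 UMIs (0.6265). The same held in cells with at least 1000 and under 3000 UMIs (0.464). Within clusters 0 and 1, described below, Ppib lay nearer the control, with ratios of 0.820 and 0.897. The interval in cluster 1 (0.779 to 1.03) spans 1.

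Translocation genes were a smaller step below the control. Their sum was 1072 CPM in the cKO library and 1409 CPM in the control library, a ratio of 0.761 (0.746 to 0.776). Spcs2 (ENSMUSG00000035227, chromosome 7, 99837569 to 99863462), a subunit of the signal peptidase, was the only one at least 1.5-fold lower, with 288 CPM in the cKO library and 476 CPM in the control library (1.65-fold, 1.59 to 1.71). Its partner subunit Spcs1 had 167 CPM in the cKO library and 166 CPM in the control library. The channel subunits Sec61a1, Sec61b and Sec61g were between 1.13-fold and 1.35-fold lower, with Sec61g at 150 CPM in the cKO library and 170 CPM in the control library. The translocon-associated proteins Ssr1, Ssr2 and Ssr3 were between 1.19-fold and 1.35-fold lower. This count depended on which cells were used. Within each of the 2 large cell clusters described below 0 of 8 translocation genes passed 1.5-fold, and among cells with at least 1000 and under 3000 UMIs 5 of 8 did. In that depth range Sec61a1 turned higher in the cKO library, with a ratio of 1.24 (1.10 to 1.40), while Sec61b had 0.375 (0.316 to 0.443) and Spcs1 0.601.

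Over all cells the ERAD genes stood close to the control. The sum was 618 CPM in the cKO library and 640 CPM in the control library, a ratio of 0.967 (0.940 to 0.995). Derl1, a component of the retrotranslocation channel, had 124 CPM in the cKO library and 128 CPM in the control library, and Sel1l, the adaptor of the ligase HRD1, had 81.5 CPM in the cKO library and 84.5 CPM in the control library. Derl2 had a ratio of 0.954, Edem1 of 0.859, and Syvn1, which encodes HRD1, of 0.835. Herpud1 was the one ERAD gene above the control, with 180 CPM in the cKO library and 165 CPM in the control library, a ratio of 1.09 (1.03 to 1.15). That direction turned in cells with at least 1000 and under 3000 UMIs, where Herpud1 had a ratio of 0.791 (0.700 to 0.892), Derl1 0.650 and Sel1l 1.09. In thinned cells without Fos, Fosb and Egr1 UMIs Herpud1 had 0.940 (0.782 to 1.14), an interval that spans 1.

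In the IRE1 and ATF6 group, Xbp1 (ENSMUSG00000020484, chromosome 11, 5520659 to 5525893) was the gene that stood apart. It had 70.7 CPM in the cKO library and 168 CPM in the control library, 2.38-fold lower (2.24 to 2.54), the size of the gap seen for Hyou1 and Creld2. A 3' count does not separate the spliced from the unspliced form. Atf6 had 63.6 CPM in the cKO library and 73.9 CPM in the control library (1.16-fold lower), and Ern1, which encodes IRE1alpha, had 14.4 CPM in the cKO library and 12.2 CPM in the control library, under the 20 CPM level, with a ratio of 1.18 (0.965 to 1.46). Xbp1 stayed between 0.371 and 0.511 in all 10 alternative settings that gave its ratio. The estimates of both sensors fell on either side of 1 with the cells used. Atf6 had 0.672 (0.435 to 0.995) within cluster 1 and 1.35 (0.940 to 1.99) in thinned cells without Fos, Fosb and Egr1 UMIs. Ern1 had 0.807 (0.256 to 1.95) and 1.56 (0.679 to 4.39) in the same cells. All of these intervals but that of Atf6 within cluster 1 span 1, so no change of direction was resolved.

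The PERK and ATF4 arm was lower by less than the folding factors. Its 4 genes summed to 186 CPM in the cKO library and 254 CPM in the control library, a ratio of 0.734 (0.701 to 0.770), and 0 of the 2 members at 20 CPM or more passed 1.5-fold. Atf4 made up most of this sum, with 137 CPM in the cKO library and 194 CPM in the control library, 1.42-fold lower (1.35 to 1.50). Ddit3, which encodes the transcription factor CHOP, had 31.4 CPM in the cKO library and 39.9 CPM in the control library, 1.27-fold lower (1.13 to 1.43). Atf4 had a ratio of 0.647 within cluster 0, and Ddit3 one of 0.574 in thinned cells without Fos, Fosb and Egr1 UMIs, both past 1.5-fold. Eif2ak3, which encodes PERK, had 17.4 CPM in the cKO library and 18.6 CPM in the control library, with an interval of the ratio (0.789 to 1.11) that spans 1. Trib3, a pseudokinase gene switched on by ATF4 and CHOP, had 22 UMIs in the cKO library and 7 in the control library, a ratio of 0.716 (0.296 to 1.98) that is too thinly counted to place. Set against this arm, the log2 ratio of the summed folding genes was lower by 0.86 (-0.856 as folding minus PERK and ATF4).

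Wider lists of the same pathways were chosen like the members, with earlier results of these data known. At 20 CPM or more, 10.0% of further folding genes were at least 1.5-fold lower. The share was 7.41% for further translocation and glycosylation genes and 5.88% for further ERAD genes, against 1.43% of all genes. In the same order, 19 of 20, 23 of 27 and 10 of 17 were lower by any amount, against 38.4% of all genes. Among 20 further ER folding genes at 20 CPM or more, 2 were lower, Sil1 with 19.9 CPM in the cKO library and 32.3 CPM in the control library and Txndc5 with 20.8 CPM and 31.6 CPM, and the median log2 ratio was -0.19. Among 27 further genes of translocation and glycosylation, 2 were lower and the median was -0.21. Both are parts of oligosaccharyltransferase, the enzyme that attaches N-glycans: Magt1 with 86.6 CPM in the cKO library against 190 CPM in the control library, and Rpn1 with 85.5 CPM in the cKO library against 160 CPM in the control library. Among 17 further ERAD genes only Selenos passed, with 217 CPM in the cKO library and 360 CPM in the control library.

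Targets of ATF4 did not shift to one side. Of 20 at 20 CPM or more, 11 were lower and 9 higher by any amount, and the median log2 ratio was -0.04. The transcription factor gene Atf3 was at least 1.5-fold lower, with 62.5 CPM in the cKO library and 107 CPM in the control library, and it is also an immediate early gene. Psat1, an enzyme of serine synthesis, was at least 1.5-fold higher, with 24.0 CPM in the cKO library and 12.9 CPM in the control library. Of 8 further genes of the integrated stress response, such as those for eIF2alpha kinases and phosphatases, 0 passed 1.5-fold either way. Of these genes from the wider lists, all but Magt1 were named after their values were seen, because so few passed.

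Counted cell by cell, the gap in folding RNA ran through the whole library rather than a small group of cells. After each cell was thinned to 1000 UMIs, which left out 543 cKO and 588 control cells below that depth, a cKO cell held 2.50 folding UMIs on average (SD 1.94 over 8331 cells) and a control cell 6.37 (SD 3.05 over 5655 cells). The medians were 2 and 6. Cells with 0 folding UMIs made up 12.2% of the cKO library (11.5 to 12.9, exact binomial interval) and 0.442% of the control library (0.286 to 0.652). At or above the control median were 6.96% of cKO cells (6.43 to 7.53) and 57.5% of control cells (56.2 to 58.8). These intervals count the cells of 1 library each and hold no spread between libraries or animals. Translocation UMIs averaged 1.04 per cKO cell and 1.41 per control cell, and PERK and ATF4 UMIs 0.193 per cKO cell and 0.252 per control cell. Unthinned, the same lists are the CPM sums given above.

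**Figure D2:**
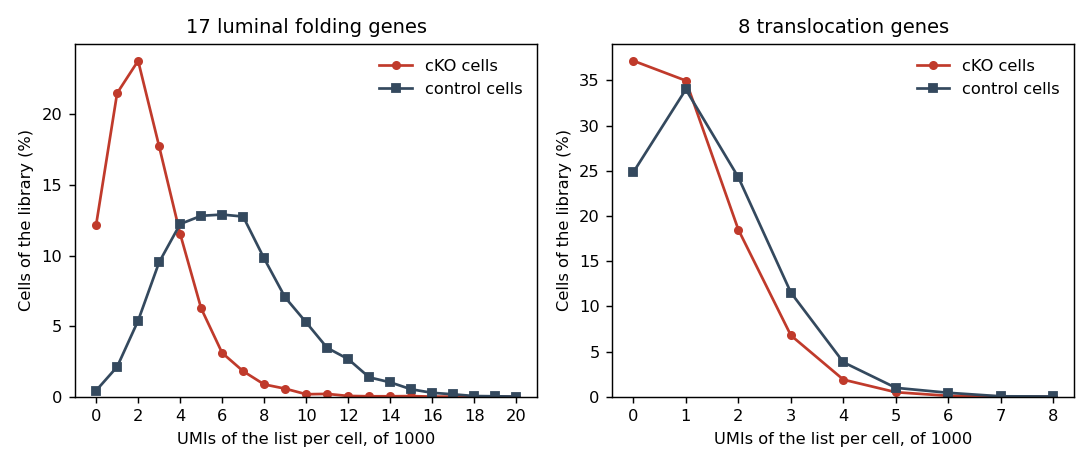
Percent of cells in each library by the number of UMIs a cell held, of 1000, from the 17 luminal folding genes (left) and the 8 translocation genes (right). The cKO curve (circles) peaks at 2 folding UMIs and the control curve (squares) at 6, while the translocation curves peak at 0 in cKO and 1 in control cells.

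Immediate early genes, which answer to cell handling as well as to signals in tissue, were also lower in the cKO library. Of 16 at 20 CPM or more, 10 were at least 1.5-fold lower, the median log2 ratio was -0.74, and the sum was 9841 CPM in the cKO library and 17475 CPM in the control library. The folding gap was present in thinned cells without UMIs of 3 of these genes, Fos, Fosb and Egr1. Such cells still held other immediate early RNA. In them 13 immediate early genes reached 20 CPM, 6 were at least 1.5-fold lower, and the summed ratio was 0.7375. Among thinned cells with 0 UMIs of Fos, Fosb and Egr1, folding UMIs averaged 2.43 in 4895 cKO cells and 6.62 in 682 control cells. Among cells with 5 or more such UMIs, they averaged 2.70 in 354 cKO cells and 6.23 in 1782 control cells. Across the 4 classes of Fos, Fosb and Egr1 UMIs the mean thus lay between 2.43 and 2.70 in cKO cells and between 6.23 and 6.62 in control cells.

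The depth of a cell moved with its folding share in the cKO library. Cells with at least 500 and under 1000 UMIs held 1370 folding CPM in the cKO library and 6068 CPM in the control library. Cells with at least 1000 and under 1500 UMIs held 1455 CPM in the cKO library and 6226 CPM in the control library. At 3000 to under 5000 UMIs the values were 2610 CPM in 3415 cKO cells and 6489 CPM in 93 control cells. At every depth that both libraries reached, the cKO value was therefore under the control value, and the gap was wider in shallow cells. Over cells with at least 1000 and under 3000 UMIs, a range chosen after the data were seen, the summed ratio was 0.326. Cluster 2, described at the end, held 1384 cKO cells with a median of 1120 UMIs but only 3 control cells. How many cKO cells of the depth range belonged to it was not counted, so ratios in this range may compare unlike cells.

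**Figure D3:**
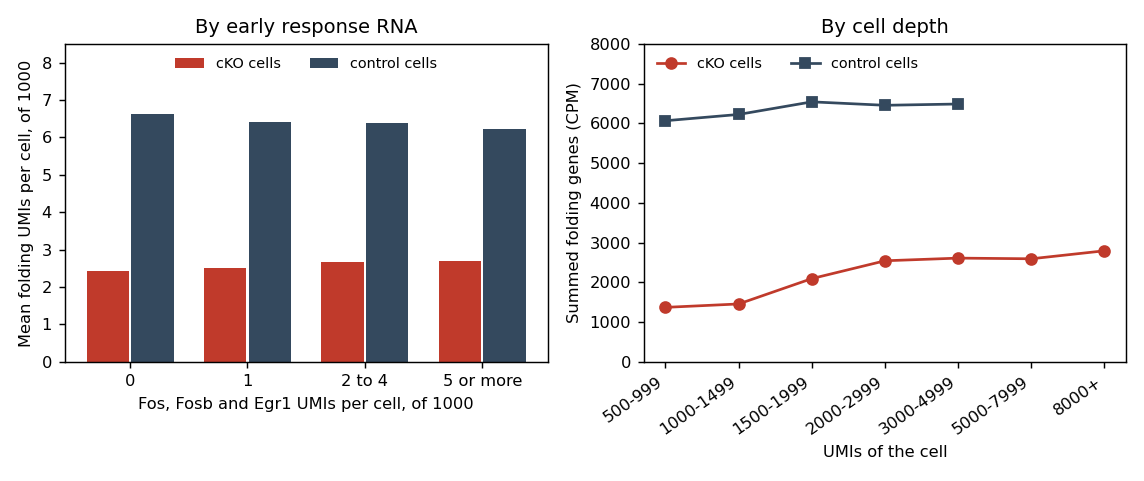
Left, mean folding UMIs per thinned cell by its Fos, Fosb and Egr1 UMIs, for cKO and control cells. Right, summed CPM of the 17 folding genes by the UMIs of the cell; cKO cells lie between 1370 and 2794 CPM and control cells between 6068 and 6543 CPM.

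Cells were also clustered without the members, the wider pathway lists and the immediate early genes. Cluster 0, led by Lyz2 and Ftl1, held 6970 cKO and 426 control cells, and cluster 1, led by Cx3cr1 and Cst3, held 226 cKO and 5724 control cells. These clusters are therefore mostly of 1 library each and may reflect the libraries themselves. Folding genes summed to 2605 CPM in cKO cells and 6504 CPM in control cells of cluster 0, and to 2495 CPM in cKO cells and 6350 CPM in control cells of cluster 1. Of the 17 members at least 1.5-fold lower over all cells, 15 stayed so within cluster 0 and 16 within cluster 1, with Dnajb11 and Spcs2 lost in cluster 0 and Spcs2 in cluster 1. The part of depth, of early response RNA and of microglial state in the gap was not tested beyond these values.

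In whole forebrain of 5xFAD mice the question was whether the same genes differed between genotypes over replicate libraries. None of the 38 passed an adjusted p of 0.05 in edgeR's quasi-likelihood test (two-sided, adjusted over all 16956 genes tested), against 0.33% of all genes tested (0.0531% higher and 0.277% lower in cKO libraries), and 0 passed in DESeq2's Wald test. At an unadjusted p of 0.05, 3 members were lower and 1 was higher, 4 of 38, against 7.71% of all genes. No member had all cKO libraries above all control libraries, or all below, against 0.13% and 0.313% of all genes. Estimates were negative for 27 members and positive for 11, with a median log2 change (cKO minus control) of -0.03, against 0.00 over all genes. For 36 of the 38, the 95% interval of the change lay within 1.5-fold either way, the exceptions being Sdf2l1 and the thinly counted Trib3.

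Microglial RNA is a small part of forebrain RNA, and in bulk tissue fewer cells of a type and less RNA per cell cannot be told apart. Of the 16 microglia markers, 13 fell in cKO forebrains (edgeR, adjusted p under 0.05), with a median log2 change of -0.65 and a summed level of 479 to 518 CPM in cKO libraries against 727 to 883 CPM in control libraries. Cx3cr1 is among these markers, and only cKO mice carried Cx3cr1-driven Cre, so its value need not reflect microglia alone. Of 45 tested markers of other cell types, 0 passed an adjusted p of 0.05 and 8 an unadjusted p of 0.05 in edgeR. Folding genes showed no such split, since their sum ran between 1820 and 2308 CPM in cKO libraries (median 2103) and between 1824 and 2361 CPM in control libraries (median 2284). Per kilobase of exon, the forebrain levels of the members spanned a wide range. Calr was highest at 105 RPKM (reads per kilobase of exon, scaled like CPM) in cKO and 107 RPKM in control libraries, followed by Canx at 80.7 RPKM in cKO and 84.5 RPKM in control libraries. Hspa5 stood at 63.3 RPKM in cKO and 69.0 RPKM in control libraries, and Trib3 was lowest at 0.330 RPKM in cKO and 0.334 RPKM in control libraries.

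The smallest p among the members belonged to Edem1 (ENSMUSG00000030104, chromosome 6, 108828641 to 108859356), the lectin-like factor that hands misfolded glycoproteins to ERAD. Its CPM ranged between 23.7 and 31.1 (median 27.4) in cKO libraries and between 29.0 and 34.6 (median 31.6) in control libraries. Most cKO libraries lay below all controls, but the groups overlapped. The log2 change was -0.23 (SE 0.07, adjusted p = 0.324). Another ERAD gene, Syvn1, pointed the other way, with 49.3 to 56.5 CPM (median 53.9) in cKO libraries and 45.8 to 54.3 CPM (median 50.8) in control libraries, a log2 change of 0.10 (SE 0.05, adjusted p = 0.667).

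Among the folding genes, Dnajc3 ranged between 61.8 and 81.1 CPM (median 75.2) in cKO libraries and between 72.1 and 96.3 CPM (median 83.5) in control libraries. Its log2 change was -0.17 (SE 0.07, adjusted p = 0.578). Sdf2l1 ranged between 5.18 and 10.1 CPM (median 6.64) in cKO libraries and between 6.12 and 11.2 CPM (median 10.3) in control libraries. The groups overlapped over most of their range, and the log2 change was -0.39 (SE 0.18, adjusted p = 0.645). Ppib was the one folding gene with a positive change at an unadjusted p under 0.05. It ranged between 40.2 and 48.7 CPM (median 45.2) in cKO libraries and between 37.6 and 47.4 CPM (median 39.8) in control libraries, with a log2 change of 0.14 (SE 0.06, adjusted p = 0.611).

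Pdia3 ranged between 176 and 228 CPM (median 192) in cKO libraries and between 187 and 239 CPM (median 227) in control libraries, a log2 change of -0.13 (adjusted p = 0.670). Hsp90b1 ranged between 211 and 277 CPM (median 236) in cKO libraries and between 213 and 284 CPM (median 268) in control libraries, a log2 change of -0.11 (adjusted p = 0.756). For both genes the groups overlapped over most of their range. Ssr3, a subunit of the translocon-associated complex, ranged between 138 and 152 CPM (median 141) in cKO libraries and between 142 and 169 CPM (median 148) in control libraries, a log2 change of -0.07 (adjusted p = 0.724).

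Among genes with wide gaps between the microglia libraries, Hspa5, Calr and Xbp1 did not stand out here. Sdf2l1, given above, had the lowest log2 change of the 38 members, -0.39, with an unadjusted p of 0.042 in edgeR. Hspa5 averaged 268 ± 49.4 CPM in cKO libraries (SD, n = 7) and 292 ± 71.2 CPM in control libraries (SD, n = 6), a log2 change of -0.12 (95% interval -0.51 to 0.26, adjusted p = 0.878). Calr averaged 303 ± 51.6 CPM in cKO libraries (SD, n = 7) and 309 ± 51.1 CPM in control libraries (SD, n = 6), a log2 change of -0.03 (-0.31 to 0.26, adjusted p = 0.970), whose sign turned when any of control libraries 3 and 6 or cKO libraries 1, 2 and 3 was left out. Xbp1 averaged 85.1 ± 8.81 CPM in cKO libraries (SD, n = 7) and 90.4 ± 14.9 CPM in control libraries (SD, n = 6), with an adjusted p of 0.841. The differences of Hspa5, Calr and Xbp1 were smaller than the spread between libraries of 1 genotype.

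The PERK and ATF4 arm was near the control in forebrain. Atf4 averaged 125 ± 15.4 CPM in cKO libraries (SD, n = 7) and 119 ± 9.63 CPM in control libraries (SD, n = 6), a log2 change of 0.08 (-0.07 to 0.23, adjusted p = 0.816). Ddit3 averaged 18.8 ± 1.34 CPM in cKO libraries (SD, n = 7) and 18.8 ± 1.36 CPM in control libraries (SD, n = 6), a change of 0.00 (adjusted p = 0.997). Eif2ak3 changed by 0.00 (-0.11 to 0.11) and Trib3 by -0.05 (-0.75 to 0.65). Of the wider lists, 0 of 28 folding genes, 0 of 28 of translocation and glycosylation, 0 of 21 of ERAD, 0 of 34 ATF4 targets and 0 of 10 of the integrated stress response passed an adjusted p of 0.05. At an unadjusted p of 0.05, the numbers in the same order were 2, 1, 0, 2 and 1.

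**Figure D4:**
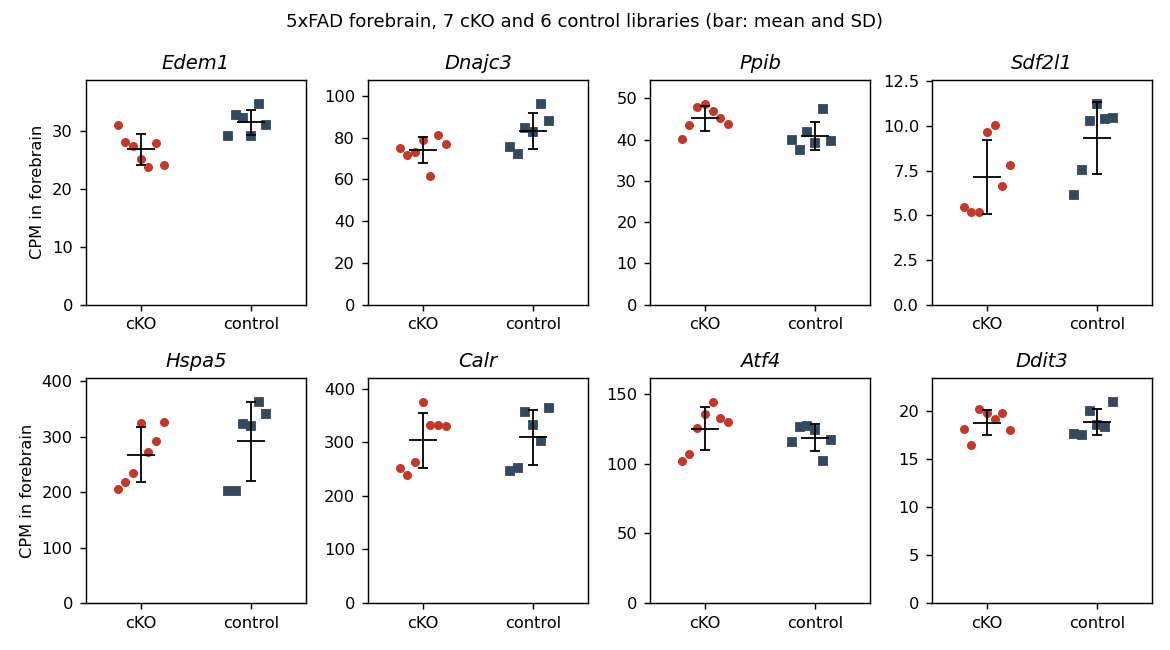
CPM of 8 members in each 5xFAD forebrain library (cKO circles, n = 7; control squares, n = 6), with horizontal bars at the mean and error bars of 1 SD. The groups overlap in every panel, and Hspa5, Calr and Sdf2l1 spread widely within both genotypes.

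Chaperone RNA spread widely among libraries of 1 genotype. The coefficient of variation within genotype had a median of 12.1% over the 17 folding genes, 7.44% over translocation and 5.50% over ERAD genes, against 8.79% over all tested genes of at least 5 CPM. It reached 25.0% for Sdf2l1, 21.6% for Hspa5, 19.7% for Fkbp2, 17.6% for Creld2 and 16.8% for Calr. Hspa5 stood at 205, 219 and 234 CPM in cKO libraries 1 to 3 and at 272 to 327 CPM in cKO libraries 4 to 7, and at 202 CPM in both control libraries 1 and 2 and 319 to 362 CPM in control libraries 3 to 6. Calr followed the same libraries, with 239 to 263 CPM in cKO libraries 1 to 3 and 331 to 375 CPM in the rest, and 247 and 251 CPM in control libraries 1 and 2 and 302 to 364 CPM in the rest. Sdf2l1 did so too, at 5.18 to 5.44 CPM in cKO libraries 1 to 3 and 6.64 to 10.1 CPM in the rest. Among controls it stood at 6.12 and 7.52 CPM in libraries 1 and 2 and 10.3 to 11.2 CPM in the rest. The same 5 libraries were the ones with positive scores (9.31 to 20.8) on the second principal component of the other genes, against -14.0 to -4.86 in the other 8. They belong to both genotypes, the labels name no batch, and the source of this axis was not tested. With its score as a covariate, an alternative added after the data were seen, 0 members passed an adjusted p of 0.05. Sdf2l1 then had a log2 change of -0.38 and an adjusted p of 0.219 in edgeR, against 0.645 without the covariate.

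The microglia and forebrain values were set side by side gene by gene. Calr had a log2 ratio of -1.99 between the microglia libraries and a log2 change of -0.03 in forebrain, Hspa5 had -1.75 and -0.12, Sdf2l1 had -1.88 and -0.39, and Hsp90b1 had -1.53 and -0.11. Pdia6 had -1.54 between microglia libraries and 0.02 in forebrain, and Manf had -1.35 and 0.01. Edem1, with the smallest p in forebrain, had -0.22 between microglia libraries. The 2 data sets differ in genotype background (5xFAD in forebrain only), in tissue and in method, and how much of a member's forebrain RNA came from microglia was not measured.

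**Figure D5:**
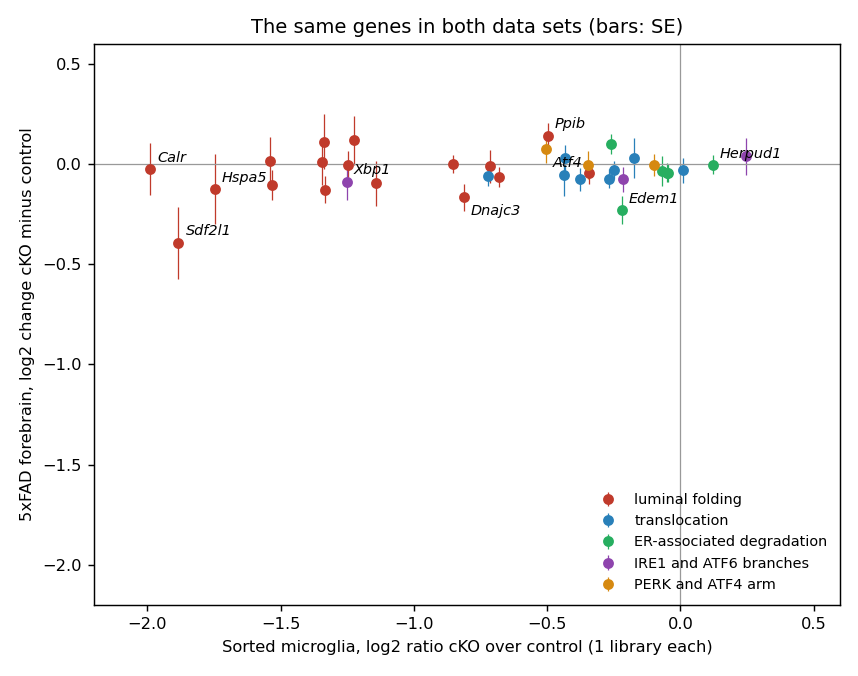
Log2 ratio between the microglia libraries (horizontal, cKO over control, 1 library each) against log2 change in 5xFAD forebrain (vertical, cKO minus control, bars of 1 SE) for 37 members, coloured by role; Trib3 is left out for its low counts. Luminal folding genes spread between -1.99 and -0.34 on the horizontal axis, while the members lie between -0.39 and 0.14 on the vertical axis.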

How the data were processed

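Per the file headers, the authors' single-cell files come from Cell Ranger 6.1.0, and they hold deposited counts of UMIs for every gene in every barcode. Seurat and mm10 are named for them in the submitters' processing notes. For the forebrain, the authors deposited whole read counts per Ensembl gene, and the submitters' processing notes name HISAT2 (2.0.5), featureCounts (1.5.0-p3) and mm10. The strand setting and annotation release were not found in the labels or headers used here, so overlapping genes cannot be told apart.

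Members and gene lists were chosen with earlier results of these data known. Forebrain counts were fitted with edgeR 4.0.16 in R 4.3.3 (filterByExpr, TMM, robust quasi-likelihood F-test, Benjamini-Hochberg adjustment). CPM used TMM-scaled totals, and RPKM the exon length of GENCODE M21 on GRCm38. DESeq2 1.42.0 was an alternative. Microglia UMIs were added up over the cells of a library, scaled to CPM and compared without a test. Clustering used scanpy 1.11.5, and doublets were not called. All 38 members are accounted for: microglia members past 1.5-fold, the 2 nearest a ratio of 1 in each role and the 8 smallest forebrain p-values are named. Scripts were tested on simulated data. Protein sequences were not used here.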

Additional observations from a re-analysis of the deposited data

Results flagged for a closer look

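In 86 groups of member values in the forebrain libraries, 2 held a library set apart from the rest of its group by more than Dixon's limit at 95%; chance alone gives about 1 in 20. Derl1 stood at 83.9 CPM in cKO library 4, with the other cKO libraries between 76.4 and 78.8 CPM. Herpud1 stood at 56.0 CPM in control library 4, with the other control libraries between 64.3 and 66.1 CPM.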

How the results depend on the processing

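In forebrain, 0 members passed in any of the 18 alternatives. These were other size factors, no count filter, DESeq2's Wald test, leaving out each library, the replicate block and the added covariate. Calr turned positive without control library 3 (0.0234) or 6 (0.0293) and without cKO library 1 (0.0155), 2 (0.0265) or 3 (0.0104), and ranged between -0.0824 and 0.0293 when single libraries were left out. Same-numbered libraries showed little sign of pairing, since their deviations correlated between -0.257 and 0.158 and 1 of 6 matched its own number best. Positive scores on the second principal component still fell on the lowest numbers of both genotypes, and a shared order of processing was not tested. Over all genes, the fit with the replicate block called 1 gene higher and 19 lower, against 9 and 47 without it. Leaving out 1 library gave 3 to 23 higher and 30 to 50 lower genes, and the DESeq2 test 22 and 61. No sex covariate was run because the libraries were of 1 sex.

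In microglia, folding genes at least 1.5-fold lower numbered 14 to 16 of 17 in 11 alternatives, and 13 of the 15 that reached a minimum of 50 CPM. Their summed ratio, 0.406, was 0.401 in cells of at least 1000 genes and within cluster 0. It was 0.393 after thinning, under median-ratio scaling and within cluster 1. It was 0.368 in cells without Fos, Fosb and Egr1 UMIs and 0.326 in cells of at least 1000 and under 3000 UMIs (added later). The PERK and ATF4 ratio, 0.734, was 0.658 within cluster 0 and 0.808 in the cells of the added depth range. The log2 difference between them, -0.856, was -0.963 thinned and -1.03 without Fos, Fosb and Egr1 UMIs. It was -0.716 and -0.952 within clusters 0 and 1, and -1.31 in the added depth range. The causes were not tested. Clusters other than 0 and 1 held under 100 cells of 1 library, so no ratios were computed within them. The added depth range also turned Herpud1 (0.791) and Sec61a1 (1.24). How many cKO cells of this range belonged to cluster 2, which is shallow and nearly absent from the control library, was not counted. Depth limits Trib3, Ern1 and Eif2ak3.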

Other observations

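Smaller cell clusters, built without the members, are given by their summed values alone, since few control cells fell in them. Cluster 4, led by cell cycle genes such as Mki67 and Top2a, held 62 of 8874 cKO cells and 12 of 6243 control cells. Its folding genes summed to 4947 CPM in cKO cells and 7393 CPM in control cells, above the 2605 CPM of cKO cells in cluster 0 and the 6350 CPM of control cells in cluster 1. Cluster 3, led by interferon-induced genes such as Ifit3 and Bst2, held 116 cKO and 58 control cells, with folding sums of 2737 CPM in cKO cells and 6167 CPM in control cells.

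Cluster 2 was led by Malat1 and Gm42418 and held 1384 cKO cells and 3 control cells. The median depth of its cKO cells was 1120 UMIs, and they held 1393 folding CPM and 530 translocation CPM, against 2605 and 1089 CPM in cKO cells of cluster 0. Their PERK and ATF4 genes summed to 208 CPM, against 185 CPM in cluster 0. Over all cKO cells, Calr and Hspa5 stood in different proportion by depth. Those with at least 500 and under 1000 UMIs had 76.3 CPM of Calr and 282 CPM of Hspa5, and cells with at least 5000 and under 8000 UMIs had 177 CPM of Calr and 273 CPM of Hspa5. In control cells of at least 500 and under 1000 UMIs these genes stood at 704 and 838 CPM.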
